A study of Homo sapiens with 9 samples.

Results

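The interleukin-6 (IL-6) family genes *IL6*, *IL11* and *LIF*, the related cytokine gene *IL24*, the shared receptor gene *IL6ST*, *STAT3* and the feedback gene *SOCS3* are described here, 7 of the 60664 genes counted in each sample. The 7 genes were selected on their measured values in these same samples, so their levels and differences are given as a description without p-values. How many of them pass the threshold of the fit over all genes was favoured by that selection, and those counts are no evidence. The cells were MDA-MB-231, a line from human breast cancer with mesenchymal character, and RNA was sequenced on day 6 in 3 samples of each of 3 groups. SC-0.77cP are scramble control (SC) cells in medium of 0.77 cP, SC-8cP the same cells in medium of 8 cP, and shTRPV4-8cP knockdown cells in medium of 8 cP, and the study asked which transcripts change when viscosity is raised and which of them depend on TRPV4, a calcium-permeable ion channel. The SC cells, labelled WT, carried a non-targeting scramble hairpin, and the shTRPV4 cells, labelled TRPV4 knockdown, carried a hairpin against *TRPV4*. Both hairpins were delivered by lentivirus in the pLKO.1 puro vector and kept under puromycin, and viscosity was raised with methylcellulose, which the medium at 0.77 cP lacked. According to the methods a single *TRPV4* hairpin was used, and shTRPV4 cells in medium of 0.77 cP are not analysed here, so a change due to the hairpin alone and a change in the response to viscosity cannot be told apart.

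Cytokines of the IL-6 family bind a ligand-specific receptor chain together with gp130, the signal-transducing chain encoded by *IL6ST*. The bound complex activates JAK kinases, which phosphorylate STAT3, and STAT3 then enters the nucleus and switches on target genes that include *SOCS3*, whose product binds gp130 and JAKs and dampens the signal. IL-24 belongs to the IL-10 and IL-20 cytokine family and also acts through STAT3, but by receptors that lack gp130. In breast cancer cells IL-6, IL-11 and LIF are known as secreted factors linked to invasion, bone metastasis and stem-like properties.

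The promoter sequences of *IL6*, *IL11* and *IL24* are shown because the levels of these cytokine genes differed most between groups. The motifs marked in *IL6* and *IL11* are those of factors that the pathway's gene lists contain. Each runs 5′ to 3′ on the strand of its gene over 300 bases, from 250 bases before the start site to 50 after it. The windows of *IL6* (chr7:22726950-22727249, plus strand), *IL11* (chr19:55370414-55370713, minus strand) and *IL24* (chr1:206897193-206897492, plus strand) are from RefSeq on GRCh38.p14. Capitals mark a C/EBP motif (TTGCNNAA) and an NF-kappaB motif of 10 letters in *IL6* and an AP-1 motif (TGANTCA) in *IL11*, where N is any base.
IL6: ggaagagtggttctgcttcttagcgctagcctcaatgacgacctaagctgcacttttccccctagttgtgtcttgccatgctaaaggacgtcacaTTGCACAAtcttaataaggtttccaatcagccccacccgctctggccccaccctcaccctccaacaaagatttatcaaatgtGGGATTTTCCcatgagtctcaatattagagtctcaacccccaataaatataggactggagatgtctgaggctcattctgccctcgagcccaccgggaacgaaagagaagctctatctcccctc
IL11: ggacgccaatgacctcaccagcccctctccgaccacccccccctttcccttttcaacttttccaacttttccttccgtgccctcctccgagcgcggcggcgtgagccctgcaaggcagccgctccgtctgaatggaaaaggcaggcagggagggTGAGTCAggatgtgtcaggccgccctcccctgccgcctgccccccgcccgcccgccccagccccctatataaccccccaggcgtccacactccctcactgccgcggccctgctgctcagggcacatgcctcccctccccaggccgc
IL24: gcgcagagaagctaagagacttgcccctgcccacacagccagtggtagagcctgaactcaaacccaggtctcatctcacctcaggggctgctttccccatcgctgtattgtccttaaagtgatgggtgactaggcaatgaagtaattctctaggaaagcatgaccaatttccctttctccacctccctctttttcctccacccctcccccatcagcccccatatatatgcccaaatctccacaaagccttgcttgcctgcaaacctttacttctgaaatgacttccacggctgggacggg
Motifs were searched on both strands in the RefSeq windows of *IL6*, *IL11*, *IL24*, *IL6ST* and *STAT3*. *LIF* had no entry among the promoters used, and *SOCS3* was not searched, so nothing is said of motifs in these genes. In *IL6* the C/EBP match began 155 bases and the NF-kappaB match 73 bases before the start site, at positions -155 and -73. In *IL11* the AP-1 match began at -96. The *IL24* window held none of the motifs searched, which were these 3, the STAT motif TTCNNNGAA, the CRE motif TGACGTCA and the NF-kappaB motif GGGNNTTCC. The windows of *IL6* and *IL11* held no STAT motif match. The windows of *IL6ST* and *STAT3*, not printed, each held an NF-kappaB match, of the 10-letter motif at -53 and of GGGNNTTCC at -12. Among 35116 RefSeq promoters of the same length, 7.66% held the STAT motif, 7.71% the AP-1 motif, 10.5% the C/EBP motif, 11.3% the 10-letter NF-kappaB motif, 6.58% GGGNNTTCC and 1.85% the CRE motif. The C/EBP motif and the 10-letter NF-kappaB motif were added after these sequences had been seen. The motifs planned before had no match in the *IL6* window, so nothing is read from its matches against these shares. The 10-letter NF-kappaB motif overlaps GGGNNTTCC in part, and a match describes letters and is no evidence of binding.

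Levels are given as CPM, counts relative to a TMM-scaled library size, and as means ± SD over 3 samples. Library totals ran from 64571681 to 103518036 counts, so that even *IL24*, with 31 to 451 counts, was read well above zero in each sample. Counting error is only a part of the spread, which the labels do not tie to separate cultures, so it may be technical. The counts of *TRPV4* were 40, 28 and 54 in SC-0.77cP, 64, 45 and 24 in SC-8cP, and 7, 1 and 13 in shTRPV4-8cP, for replicates 1 to 3. It was lower in shTRPV4 cells than in SC-8cP by a log2 fold change of -2.51 ± 0.492 (SE, adjusted p = 0.00219 in edgeR's quasi-likelihood test). *VIM*, *CD44*, *EGFR*, *AXL* and *CAV1*, which the line is known to express, summed to between 4174 and 4551 CPM. Another list held 5 genes taken to be absent or low in the line, *ESR1*, *PGR*, *ERBB2*, *CDH1* and *EPCAM*. Of these, 3 were below 1 CPM in all samples. The 5 summed to 108.5 to 115.1 CPM in SC-0.77cP, 112.1 to 114.7 in SC-8cP and 110.7 to 113 in shTRPV4 cells. Most of this was *ERBB2*, with means of 93.2, 95.5 and 93.3 CPM. Of 6 leukocyte markers, 4 were below 1 CPM in all samples and 1 was at 0. The leukocyte markers summed to 12.0 to 13.2 CPM in SC-0.77cP, 10.7 to 11.8 in SC-8cP and 7.95 to 8.72 in shTRPV4 cells. Markers of fibroblasts and endothelium summed to 42.0 to 51.7, 26.9 to 32.2 and 24.6 to 28.6 CPM in the same order, chiefly through *COL1A2*, and their part in the results below was not tested.

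*IL6* was the gene of the 7 with the largest drop at 8 cP. *IL6* (ENSG00000136244, chromosome 7, 22725884 to 22732002, plus strand) encodes the founding cytokine of the family, an inducer of the acute phase response. In SC-0.77cP its level was 29.7, 36.6 and 21.6 CPM in replicates 1 to 3, against 4.92, 5.36 and 4.73 CPM in SC-8cP. In shTRPV4-8cP it was 5.38, 7.09 and 7.70 CPM. All samples at 0.77 cP lay far above all samples at 8 cP, and shTRPV4 cells lay just above SC-8cP without overlap, the closest samples being 5.36 and 5.38 CPM. The log2 difference between SC-8cP and SC-0.77cP was -2.54 ± 0.16 (SE), a 5.83-fold lower mean. Between shTRPV4-8cP and SC-8cP it was 0.42 ± 0.165, and between shTRPV4-8cP and SC-0.77cP it was -2.12 ± 0.157. The SD at 0.77 cP was 25.5% of the mean, the highest share of the 3 groups for this gene. *IL6* shares 428 exon bases with *IL6-AS1* and 46 with *STEAP1B* on the other strand, and *IL6-AS1* was at 0.14, 0.12 and 0.15 CPM in the 3 groups. In bulk RNA, fewer cells that express a gene and less RNA per cell cannot be told apart, here and in all results that follow.

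*IL11* was lower at 8 cP and lowest in shTRPV4 cells. *IL11* (ENSG00000095752, chromosome 19, 55364382 to 55370463, minus strand) encodes a cytokine known for its part in fibrosis and in bone metastasis of breast cancer. Its level was 54.0, 57.7 and 74.3 CPM in SC-0.77cP, 39.0, 40.9 and 42.7 CPM in SC-8cP, and 36.9, 30.6 and 32.8 CPM in shTRPV4-8cP. The 3 groups did not overlap, although the highest shTRPV4 sample came close to the lowest SC sample at 8 cP. The log2 difference was -0.60 ± 0.0955 (SE) for SC-8cP against SC-0.77cP. It was -0.29 ± 0.0966 for shTRPV4-8cP against SC-8cP and -0.89 ± 0.0965 for shTRPV4-8cP against SC-0.77cP. The mean at 0.77 cP was 1.52 times that of SC-8cP, and its SD of 10.8 CPM rested mostly on replicate 3.

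*LIF* differed least of the 3 ligands. *LIF* (ENSG00000128342, chromosome 22, 30240453 to 30246759, minus strand) encodes leukemia inhibitory factor, known for keeping mouse embryonic stem cells undifferentiated. It was at 63.0, 64.3 and 67.3 CPM in SC-0.77cP, 51.3, 51.3 and 50.01 CPM in SC-8cP, and 57.1, 56.8 and 51.8 CPM in shTRPV4-8cP. SC-8cP were the lowest group and shTRPV4 cells lay between the SC groups, with no overlap, the nearest samples of the groups at 8 cP being 51.3 and 51.8 CPM. The log2 difference was -0.35 ± 0.049 (SE) for SC-8cP against SC-0.77cP and 0.12 ± 0.049 for shTRPV4-8cP against SC-8cP. Against SC-0.77cP, shTRPV4 cells differed by -0.23 ± 0.049. *LIF* shares 86 exon bases with *LIF-AS1* and 83 with *LIF-AS2*.

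*IL24* was higher in both groups at 8 cP than at 0.77 cP, where *IL6*, *IL11* and *LIF* were lower, and was highest in shTRPV4 cells. Between the groups at 8 cP *IL24* was higher in shTRPV4 cells, as were *IL6* and *LIF*, and *IL11* was lower. *IL24* (ENSG00000162892, chromosome 1, 206897443 to 206904139, plus strand) encodes a cytokine known for growth-suppressing effects in cancer cells. It had 33, 31 and 77 counts, or 0.350, 0.483 and 0.749 CPM, in SC-0.77cP. SC-8cP held 85, 97 and 120 counts, or 0.859, 1.00 and 1.32 CPM. The shTRPV4 cells held 451, 308 and 298 counts, or 4.92, 3.94 and 3.30 CPM. No groups overlapped, and the step from SC to shTRPV4-8cP was wider than the step between the SC groups, where replicate 3 of SC-0.77cP came near the lowest sample at 8 cP. The log2 difference was 0.98 ± 0.257 (SE) between the SC groups and 1.93 ± 0.216 between shTRPV4-8cP and SC-8cP, a 3.82-fold higher mean. Between shTRPV4-8cP and SC-0.77cP it was 2.92 ± 0.239, or 7.56-fold. Without replicate 3 of SC-0.77cP the differences from that group were 1.39 and 3.32.

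*IL24* shares 823 exon bases, 41.6% of its exons, with *FCMR* on the other strand, a gene for an IgM receptor of B cells. The kit marked the strand, but the strand option of the counting is not given in the sources used here. If reads of both strands were counted, *IL24* and *FCMR* reads in the shared bases could not be told apart. *FCMR* was at 1.94, 1.98 and 2.04 CPM in SC-0.77cP, 2.60, 2.39 and 3.28 in SC-8cP, and 5.00, 5.02 and 4.40 in shTRPV4 cells. It was thus lowest and highest in the same groups as *IL24*, with log2 fold changes of 0.47 (adjusted p = 0.019) for SC-8cP against SC-0.77cP and 0.80 (adjusted p = 0.00026) for shTRPV4-8cP against SC-8cP in edgeR's quasi-likelihood test. Its part in the *IL24* values was not tested.

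**Figure D1:**
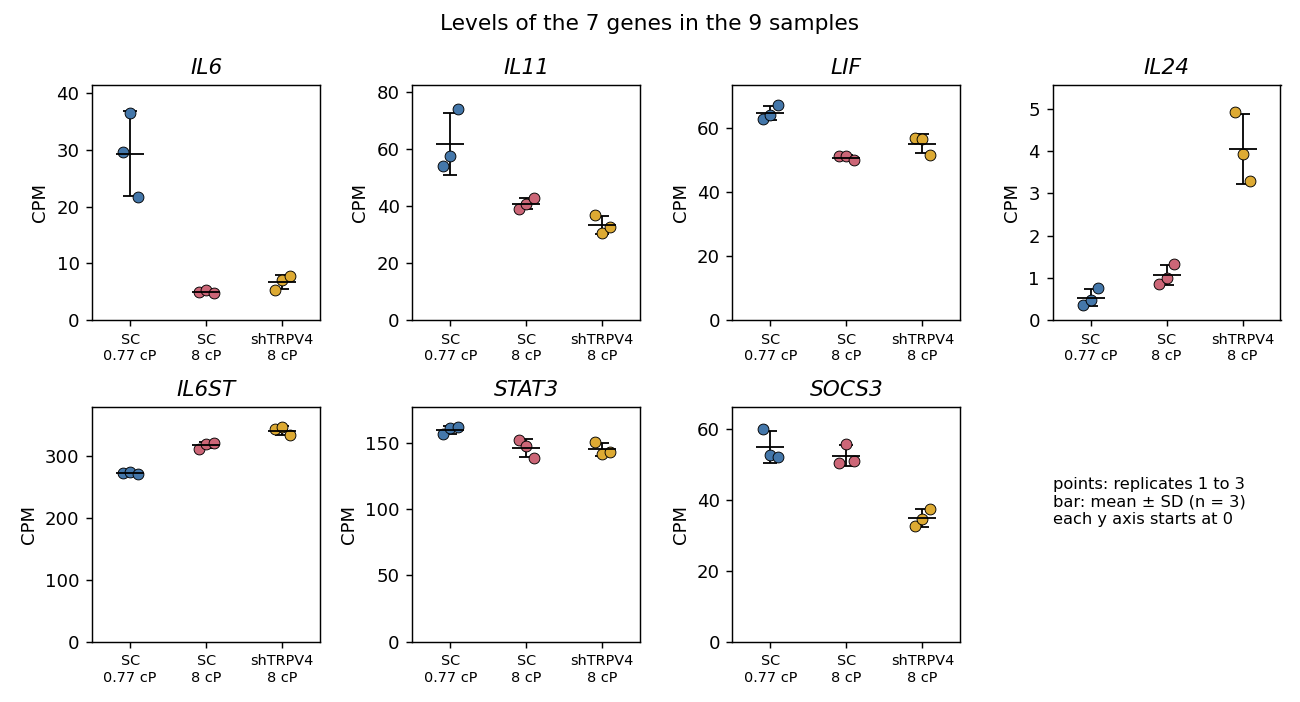
Levels of the 7 genes in CPM (y axes, each from 0) in replicates 1 to 3 of SC-0.77cP, SC-8cP and shTRPV4-8cP, with the mean and SD as bars. *IL6* has a mean of 29.3 CPM at 0.77 cP and 5.00 in SC-8cP, *IL24* reaches 4.05 CPM in shTRPV4 cells, and *SOCS3* lies at 34.9 CPM in shTRPV4 cells against 54.9 and 52.4 in the SC groups.

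*IL6ST* was higher by small steps in groups where the ligand genes *IL6* and *IL11* were lower than at 0.77 cP. *IL6ST* (ENSG00000134352, chromosome 5, 55935095 to 55995022, minus strand) encodes gp130, the chain that the receptors of IL-6, IL-11 and LIF share. It was at 272.1, 274.7 and 271.1 CPM in SC-0.77cP, 312.4, 319.6 and 321.4 CPM in SC-8cP, and 343.7, 346.7 and 334.1 CPM in shTRPV4-8cP. The groups stood apart with narrow spreads, the SD being 0.691% to 1.93% of the mean. The log2 difference was 0.22 ± 0.0395 (SE) for SC-8cP against SC-0.77cP, 0.10 ± 0.0394 for shTRPV4-8cP against SC-8cP, and 0.33 ± 0.0395 for shTRPV4-8cP against SC-0.77cP. A non-coding gene on the other strand that shares 797 of its exon bases had 0 counts.

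*STAT3* differed little between groups. *STAT3* (ENSG00000168610, chromosome 17, 42313324 to 42388540, minus strand) encodes the transcription factor that gp130 activates, mostly by phosphorylation, which transcript counts do not measure. It was at 156.4, 160.9 and 162.0 CPM in SC-0.77cP, 152.3, 147.2 and 138.7 CPM in SC-8cP, and 150.6, 141.5 and 142.7 CPM in shTRPV4-8cP. Both groups at 8 cP lay below the group at 0.77 cP and overlapped each other. The log2 difference was -0.13 ± 0.046 (SE) for SC-8cP against SC-0.77cP and -0.14 ± 0.046 for shTRPV4-8cP against SC-0.77cP. Between the groups at 8 cP it was -0.011 ± 0.046, with a 95% interval of -0.11 to 0.087.

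*SOCS3* was the gene of the 7 that differed between shTRPV4 cells and both SC groups but not between the SC groups beyond their spread. *SOCS3* (ENSG00000184557, chromosome 17, 78356778 to 78360077, minus strand) encodes the inhibitor that closes the loop on gp130 signalling. It was at 60.0, 52.6 and 52.0 CPM in SC-0.77cP, 50.5, 55.8 and 50.9 CPM in SC-8cP, and 32.5, 34.7 and 37.5 CPM in shTRPV4-8cP. The SC groups overlapped and every shTRPV4 sample lay below every SC sample. The log2 difference between the SC groups was -0.067 ± 0.0656 (SE), with a 95% interval of -0.21 to 0.073. Between shTRPV4-8cP and SC-8cP it was -0.59 ± 0.0664, and against SC-0.77cP it was -0.65 ± 0.0665. *STAT3* itself overlapped between the groups at 8 cP.

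**Figure D2:**
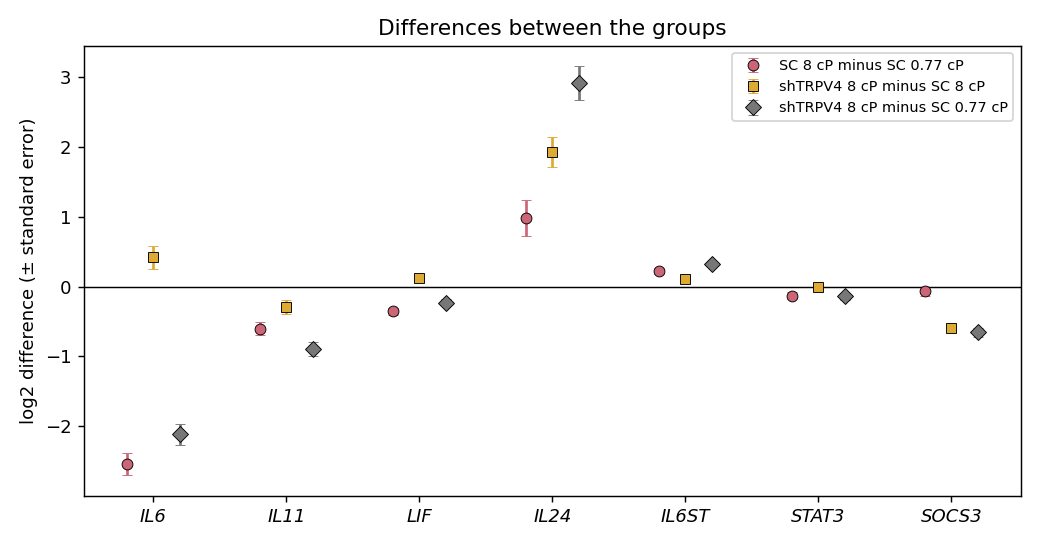
Log2 differences of the 7 genes with standard errors (y axis) for the 3 pairs of groups. *IL24* is above 0 in all pairs, from 0.98 to 2.92, and *IL6* is at -2.54 and -2.12 against SC-0.77cP but at 0.42 between the groups at 8 cP.

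All 7 genes passed the filter on low counts. For SC-8cP against SC-0.77cP, 2 were higher (*IL24* and *IL6ST*) and 3 lower (*IL6*, *IL11* and *LIF*) at an adjusted p below 0.05 in edgeR's quasi-likelihood test, where 9.57% of the 18264 genes tested were higher and 9.69% lower. The groups did not overlap for 6 of the 7 genes, as for 38.4% of all genes tested. For shTRPV4-8cP against SC-8cP, 1 was higher (*IL24*) and 2 lower (*IL11* and *SOCS3*), where 9.02% of all genes were higher and 11.0% lower, and 6 did not overlap, as for 36.3% of all genes. For shTRPV4-8cP against SC-0.77cP, 2 were higher and 5 lower, where 20.4% of all genes were higher and 22.0% lower, and all 7 did not overlap, as for 50.6% of all genes. Between the SC groups *STAT3* was also called lower with upper quartile scaling, a minimum of 10 counts, only the 6 samples compared, or without replicate 1 of shTRPV4-8cP. Its call against SC-0.77cP in the third comparison was lost without replicate 2 or 3 of SC-0.77cP or of shTRPV4-8cP. Between the SC groups *IL24* was not called without replicate 1 or 2 of SC-0.77cP or replicate 3 of SC-8cP. Between the groups at 8 cP *IL11* was not called without any 1 of 5 of the 6 samples compared, replicate 1 of shTRPV4 cells being the exception. Since the 7 genes were chosen for such values, nothing is read from these counts. The median log2 difference of the 7 genes was -0.13, 0.10 and -0.23 in the 3 comparisons, against -0.0065, 0.00064 and -0.011 over all genes tested. Each group enters a pair of these comparisons, so they are not independent of each other.

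Scaled to exon length, the ligand and receptor transcripts differed widely in level. The length was that of all annotated exons of a gene merged, 4321 bases for *IL6* and 1979 for *IL24*. Which transcripts the cells make was not examined, so the order of genes on this scale depends on that length. In CPM per kilobase of exons, levels in SC-0.77cP ran from *IL11* (23.2), *IL6ST* (22.6), *SOCS3* (20.1), *LIF* (16.8) and *STAT3* (14.3) down to *IL6* (6.78) and *IL24* (0.266). The samples of *IL11* overlapped those of *IL6ST* and of *SOCS3*, while *LIF*, *STAT3*, *IL6* and *IL24* stood apart from their neighbours in this order. In SC-8cP the order on this scale was *IL6ST* (26.4), *SOCS3* (19.2), *IL11* (15.3), *LIF* (13.1), *STAT3* (13.03), *IL6* (1.16) and *IL24* (0.537), with overlap between *LIF* and *STAT3* only. In shTRPV4-8cP *IL24* (2.05) had a higher mean level per kilobase than *IL6* (1.56), with overlapping samples. Without division by length *IL6* was the higher there, at a mean of 6.72 CPM against 4.05 for *IL24*. Per kilobase *IL6ST* (28.3) stood above *LIF* (14.3), *STAT3* (12.9), *SOCS3* (12.8) and *IL11* (12.5). The samples of these last 4 genes overlapped.

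The other genes of the pathway were taken from lists by role, 85 genes of which 73 passed the filter on low counts. They were tested with edgeR's quasi-likelihood test over all 18264 genes. For SC-8cP against SC-0.77cP 3 rose and 21 fell, or 4.11% and 28.8% of those tested, where 9.57% of all genes tested were higher and 9.69% lower. For shTRPV4-8cP against SC-8cP 6 rose and 11 fell, or 8.22% and 15.1%, beside 9.02% and 11.0% of all genes. For shTRPV4-8cP against SC-0.77cP 14 rose and 31 fell, or 19.2% and 42.5%, beside 20.4% and 22.0% of all genes. The shares of genes that rose were thus below or near those over all genes, and the same shares over all genes are the background of the counts per list that follow. The median log2 fold change over the 73 genes was -0.098, -0.0073 and -0.13 in these comparisons. The lists were written when results of these samples for *IL24* and some early response genes were known. The shares and medians over the lists are therefore not independent evidence.

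**Figure D3:**
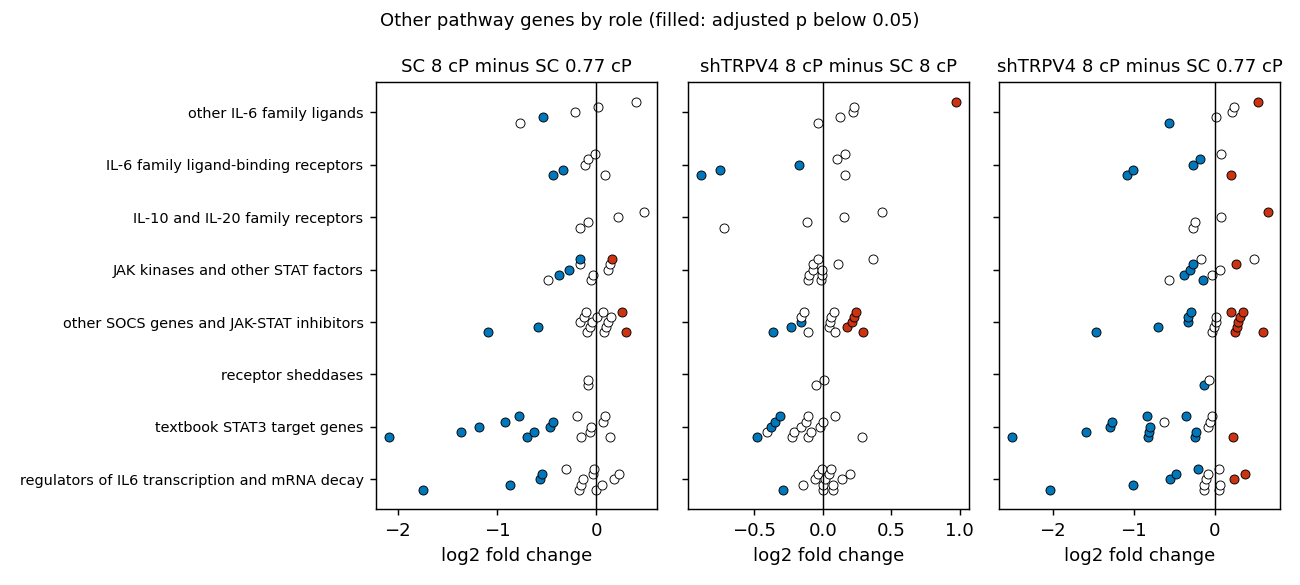
Log2 fold changes (x axes) of the 73 other pathway genes tested, by role (y axis), in the 3 comparisons, filled in blue or red where the adjusted p was below 0.05. The lowest points at 8 cP against 0.77 cP are *FOS* at -2.09 and *ZFP36* at -1.75.

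Among the other ligands of the family, *CLCF1*, which encodes a cytokine that signals through gp130 and the LIF receptor, fell in SC-8cP. It went from 27.4 CPM at 0.77 cP to 19.0 CPM at 8 cP, a log2 fold change of -0.53 ± 0.0519 (SE, adjusted p = 6.72e-06 in edgeR's quasi-likelihood test), and was at 18.5 CPM in shTRPV4 cells. *EBI3*, a subunit of IL-27 and IL-35, was at 0.722, 0.421 and 0.832 CPM in the 3 groups and rose in shTRPV4-8cP against SC-8cP by 0.97 ± 0.274 (adjusted p = 0.0207, edgeR), a call lost in 2 of 15 alternative fits. Of the 8 listed ligands 5 were tested, with 1 lower in the comparison of the SC groups, 1 higher in that of the groups at 8 cP, and 1 higher and 1 lower in the third. The higher gene of the third comparison was *CNTF*, at a log2 fold change of 0.53 (adjusted p = 0.0478, edgeR), a call lost in 6 of 15 alternative fits, and 38.5% of its exon bases are shared with a read-through gene. *OSM*, the oncostatin M gene, had at most 1 count in any sample.

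Among the receptor chains that pair with gp130 or with each other, *OSMR* fell between the SC groups and again between the groups at 8 cP. Of the 6 tested in edgeR, 2 fell and none rose for SC-8cP against SC-0.77cP, 3 fell and none rose for shTRPV4-8cP against SC-8cP, and 4 fell and 1 rose for shTRPV4-8cP against SC-0.77cP. DESeq2 also called none higher in the first and second comparisons, and 0 and 1 were higher there at an unadjusted p below 0.05 in edgeR. *OSMR*, the oncostatin M receptor chain, was at 170.9, 157.2 and 143.1 CPM in SC-0.77cP, 137.7, 127.2 and 108.9 CPM in SC-8cP, and 69.6, 76.3 and 76.7 CPM in shTRPV4 cells. It fell in both steps, by log2 fold changes of -0.33 ± 0.0773 (SE, adjusted p = 0.00854) and -0.75 ± 0.0782 (adjusted p = 8.95e-06) in edgeR's quasi-likelihood test. Its step in the SC groups had an adjusted p of 0.0672 without replicate 1 of SC-0.77cP and 0.0534 without replicate 3 of SC-8cP.

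*IL6R*, the chain that binds IL-6, was scarce in all groups. It had 79, 42 and 71 counts in SC-0.77cP, 69, 69 and 55 in SC-8cP and 42, 31 and 21 in shTRPV4 cells. Per kilobase of exons its level was 0.10, 0.0962 and 0.0518 CPM in the 3 groups, against 22.6 to 28.3 for *IL6ST*. It fell in shTRPV4-8cP against SC-8cP by -0.89 ± 0.259 on the log2 scale (SE, adjusted p = 0.0236, edgeR), a call lost in 3 of 15 alternative fits. *LIFR*, the LIF receptor chain, fell in the same comparison by -0.17 ± 0.0496 (adjusted p = 0.0228, edgeR), a call lost in 4 of 15. *IL11RA*, the IL-11 receptor chain, was lower in SC-8cP than in SC-0.77cP by -0.44 ± 0.105 (adjusted p = 0.0106, edgeR), a call lost in 1 of 15. It shares 32.5% of its exon bases with an overlapping gene on its strand, whose part in these values was not tested. The lower level of *IL11RA* in shTRPV4-8cP than in SC-0.77cP (adjusted p = 0.0457, edgeR) is one of the 4 falls counted for the third comparison. That call was lost in 13 of 15 alternative fits, DESeq2 among them. *IL31RA* was the receptor that rose, by 0.19 (adjusted p = 0.0211, edgeR) in shTRPV4-8cP against SC-0.77cP, a call lost in 3 of 15.

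The receptor chains that bind IL-24 were at low levels, with 5 to 30 counts a sample for *IL20RA*, 35 to 70 for *IL20RB* and 41 to 110 for *IL22RA1*. *IL20RA* was at 0.142, 0.204 and 0.124 CPM, *IL20RB* at 0.610, 0.578 and 0.650 CPM and *IL22RA1* at 0.677, 0.795 and 1.07 CPM in SC-0.77cP, SC-8cP and shTRPV4 cells. None of the 4 receptors tested on this list was called in the comparisons at 8 cP against 0.77 cP or between the groups at 8 cP, by edgeR or DESeq2, and 0 had an unadjusted p below 0.05 in edgeR. Only *IL22RA1* differed in the third, by 0.65 ± 0.216 on the log2 scale (SE, adjusted p = 0.0238, edgeR), a call lost in 4 of 15 alternative fits. The other ligands of the family, *IL10*, *IL19*, *IL20*, *IL22* and *IL26*, had at most 4 counts in any sample and were not tested.

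**Figure D4:**
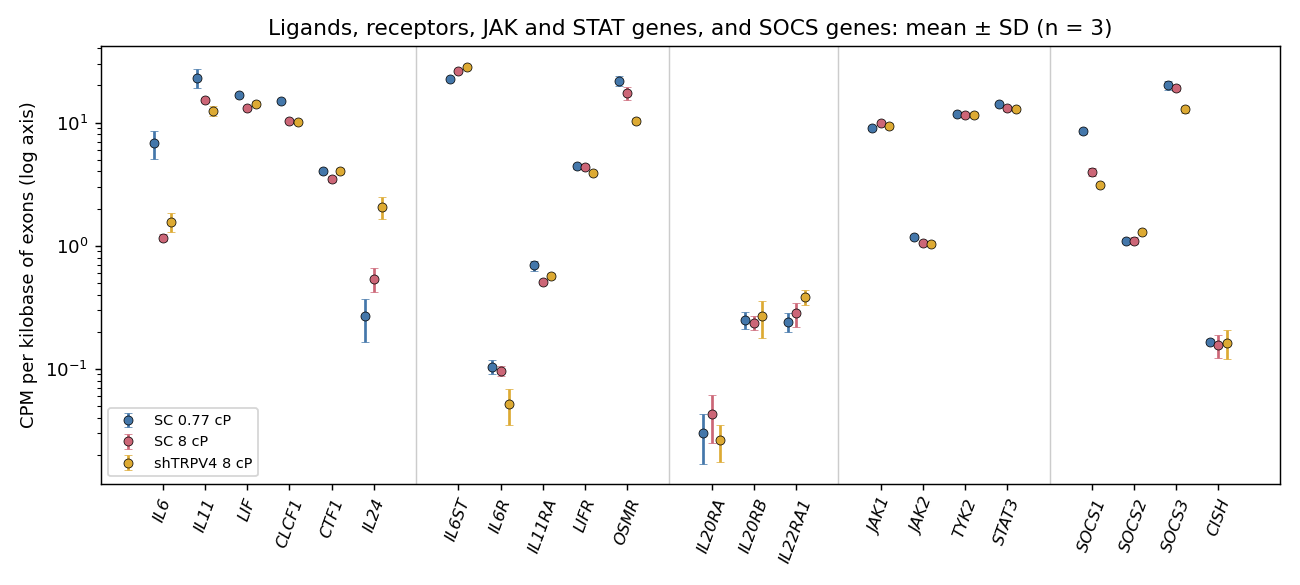
Levels in CPM per kilobase of exons (log y axis, mean and SD of 3 samples) of ligand, receptor, JAK, STAT and SOCS genes in the 3 groups. *IL6ST* lies between 22.6 and 28.3, *IL6R* at or below 0.10, and *IL24* runs from 0.266 to 2.05.

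The genes of the kinases that carry the signal did not pass the threshold in the main fit. *JAK1*, the main kinase on gp130, was at 118, 130 and 123 CPM in the 3 groups. Neither it nor *JAK2* or *TYK2* was called in any comparison in the main edgeR fit. Between the SC groups the adjusted p of *JAK1* was 0.0628 in edgeR and 0.0322 with DESeq2. *JAK1* was called higher there in 4 of 15 alternative fits, DESeq2 among them. For shTRPV4-8cP against SC-0.77cP *JAK2* was called lower in 1 of 15. *STAT2*, *STAT5A* and *STAT6* fell in the comparison of the SC groups, by -0.37, -0.28 and -0.16 on the log2 scale (adjusted p = 0.00233, 0.0117 and 0.0152, edgeR), calls lost in 0, 2 and 4 of 15 alternative fits. Over the whole list of 10 kinases and STAT genes, 1 rose and 3 fell in that comparison in edgeR. In the third comparison 1 rose and 4 fell. Of the 10 kinases and STAT genes none was called between the groups at 8 cP by edgeR, where 1 was higher and 2 lower at an unadjusted p below 0.05, and DESeq2 called 1 lower, *STAT6* (log2 fold change -0.11, adjusted p = 0.0482 in DESeq2).

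Inhibitors of the pathway moved in both directions. *SOCS1*, which blocks JAK activity, was at 14.5, 15.9 and 15.3 CPM in SC-0.77cP, 7.70, 6.79 and 6.83 CPM in SC-8cP and 5.48, 5.43 and 5.63 CPM in shTRPV4 cells. On the log2 scale it fell by 1.09 ± 0.0743 in the first step (SE, adjusted p = 9.02e-08) and fell by 0.37 ± 0.0774 in the second (adjusted p = 0.00361) in edgeR's quasi-likelihood test. *SOCS1* fell between the SC groups, where *SOCS3* overlapped, and both were lower in shTRPV4-8cP than in SC-8cP. *SOCS4* rose in both steps, by 0.30 (adjusted p = 0.00245) and 0.29 (adjusted p = 0.00148, edgeR). *SOCS2* rose between the groups at 8 cP by 0.24 ± 0.0751 (adjusted p = 0.033, edgeR), a call lost in 6 of 15 alternative fits, and *SOCS5* fell there by -0.24 (adjusted p = 0.0121, edgeR). *CISH* was at 0.840, 0.785 and 0.823 CPM and was not called in any comparison.

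Phosphatases were counted in the same list of 16 inhibitors. *PTPN6*, encoding SHP-1, fell from 6.92 to 4.61 CPM between the SC groups, by -0.59 ± 0.102 on the log2 scale (SE, adjusted p = 0.0018, edgeR). *PTPN11*, encoding SHP2, which also carries gp130 signals to the MAP kinases, rose from 233.6 to 279.0 CPM (log2 fold change 0.26, adjusted p = 0.00959, edgeR), a call lost in 2 of 15 alternative fits. *PTPN2*, a phosphatase of JAKs and STATs, rose in shTRPV4-8cP against SC-8cP by 0.23 ± 0.0536 (adjusted p = 0.0067, edgeR). Over the whole list 2 rose and 2 fell for the SC groups, 5 rose and 3 fell between the groups at 8 cP, and 7 rose and 5 fell in the third comparison. The median log2 fold change of the list was -0.018, 0.058 and 0.011.

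Textbook STAT3 target genes were the list with the most genes lower at 8 cP. Of 16 tested, 9 fell and none rose for SC-8cP against SC-0.77cP in edgeR as in DESeq2, and 1 was higher at an unadjusted p below 0.05 in edgeR. Of all genes tested 9.69% were lower and 9.57% higher in this comparison. The median log2 fold change of the list was -0.45 in edgeR. The list was written when low values of some early response genes in these samples were already known, so its direction is not independent evidence. *FOS* was at 57.0 CPM in SC-0.77cP, 13.4 in SC-8cP and 10.1 in shTRPV4 cells, and fell between the SC groups by -2.09 ± 0.139 on the log2 scale (SE, adjusted p = 7.07e-08, edgeR). *JUNB* fell by 1.36 ± 0.106 (adjusted p = 5.6e-07, edgeR), *MYC* fell by 1.18 ± 0.0533 (adjusted p = 6.4e-10, edgeR) and *IRF1* fell by 0.69 ± 0.0639 (adjusted p = 3.5e-06, edgeR). *FOS*, *JUNB*, *MYC* and *IRF1* are early response genes that many other signals also induce. *CCND1*, *BIRC5* and *BCL2L1*, which drive the cell cycle or block cell death, did not pass the threshold in this comparison, with log2 fold changes of 0.13, 0.071 and -0.056.

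Between the groups at 8 cP 4 of these 16 genes fell and none rose in edgeR, 3 fell and none rose in DESeq2, and at an unadjusted p below 0.05 in edgeR 10 were lower and 0 higher. *MCL1*, a survival gene, was at 641.2, 463.6 and 363.4 CPM in the 3 groups and fell by 0.35 ± 0.0462 (SE, adjusted p = 8.49e-05, edgeR), after a fall of -0.47 between the SC groups. *PIM1*, a kinase gene, fell by 0.38 ± 0.0651 (adjusted p = 0.000755, edgeR), after -0.43 between the SC groups. *TIMP1*, a metalloproteinase inhibitor, fell by 0.31 ± 0.0499 (adjusted p = 0.000435, edgeR) and had a log2 fold change of 0.084 between the SC groups (adjusted p = 0.263, edgeR). *CEBPD*, a transcription factor gene, fell by 0.48 (adjusted p = 0.041, edgeR), a call lost in 6 of 15 alternative fits. For shTRPV4-8cP against SC-0.77cP 11 fell and 1 rose, with a median of -0.72.

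Of the regulators of *IL6* transcription and mRNA decay, genes of factors that raise and of factors that lower *IL6* mRNA fell at 8 cP. Of 14 tested in edgeR, 4 fell and none rose between the SC groups (5 and 1 in DESeq2, and 7 lower and 2 higher at an unadjusted p below 0.05), 1 fell and none rose between the groups at 8 cP in either tool, and 5 fell and 2 rose in the third comparison. *CEBPB*, whose product binds C/EBP motifs, was at 116, 63.7 and 57.6 CPM in the 3 groups. It fell between the SC groups by -0.86 ± 0.0764 on the log2 scale (SE, adjusted p = 2.25e-06, edgeR). Its binding to the *IL6* window was not tested. *NFKBIA*, the inhibitor and target of NF-kappaB, fell by 0.56 ± 0.0785 (adjusted p = 0.000345, edgeR), while *NFKB1* and *RELA*, which encode NF-kappaB subunits, had log2 fold changes of 0.061 and 0.00018 (adjusted p = 0.487 and 0.998, edgeR). The decay factors *ZFP36* and *ZC3H12A*, whose products degrade *IL6* mRNA, fell too. This list was also written with results of some early response genes known, so its counts are not independent evidence. *ZFP36* was at 55.2, 16.4 and 13.4 CPM, with a fall of -1.75 ± 0.0616 between the SC groups (adjusted p = 2.63e-11, edgeR), and *ZC3H12A* fell by 0.55 ± 0.13 (adjusted p = 0.00987, edgeR), a call lost in 1 of 15 alternative fits. The sheddases *ADAM10* and *ADAM17*, which release soluble IL-6 receptor, were not called in the comparison of the SC groups or of the groups at 8 cP by edgeR or DESeq2, and 0 had an unadjusted p below 0.05 there. In the third comparison *ADAM17* was called lower, by -0.13 on the log2 scale (adjusted p = 0.0365, edgeR), and *ADAM10* was not called. The *ADAM17* call was lost in 12 of 15 alternative fits, DESeq2 among them.

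Genes whose levels followed the cytokines most closely over the 9 samples were found by the root mean square difference of the centred log2 CPM, for which 0 means the same pattern. For *IL6* these were *NUAK2* (0.213), *CXCL2* (0.264) and *CSF2* (0.284), where the pattern of *IL6* itself had a root mean square of 1.12. *CXCL2*, a neutrophil-attracting chemokine, was at 10.1, 2.18 and 2.29 CPM in the 3 groups, and *CSF2*, the GM-CSF gene, at 22.2, 5.53 and 6.19 CPM. For *IL11*, whose own value was 0.391, they were *ADAMTS1* (0.115), *KLF4* (0.120) and *SLC25A25* (0.121). *LIF*, with its own value of 0.152, was followed most closely by *KANSL1* (0.0435), *COQ10B* (0.0593) and *MEF2D* (0.0609). The genes nearest to *IL24* were less alike, with *BMPER* at 0.483, *SPNS2* at 0.521 and *CAMK2B* at 0.556 against 1.26 for *IL24* itself. *BMPER*, a secreted regulator of bone morphogenetic proteins, was at 3.87, 6.53 and 14.8 CPM in the 3 groups.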

How the data were processed

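Poly(A) RNA of 9 samples was sequenced with a strand-marking kit. As given in the labels and methods, the authors mapped reads to GRCh38.p13 with HISAT2 2.2.1, processed them with SAMtools, counted them per Ensembl gene with HTSeq 0.13.5 and tested them with DESeq2. The counts were deposited by the authors per sample without normalization, and the strand option of the counting is not given in the sources used here. Of 60664 genes, 60463 matched a symbol. Columns not used numbered 0.

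The counts were analysed in R 4.3.3 with edgeR 4.0.16 and limma 3.58.1. Scaling was by TMM, low genes were removed by filterByExpr (18264 genes kept), and edgeR's quasi-likelihood test used 1 coefficient per group over all 9 samples, with Benjamini-Hochberg adjustment over all genes tested and a threshold of 0.05. The common biological coefficient of variation was 0.0633. An exact permutation test of 3 against 3 samples cannot go below p = 0.10, so none was used. CPM were TMM-scaled, exon lengths and overlaps came from GENCODE 44, and log2 CPM for pattern likeness used a prior count of 2. The fits were tested on simulated data with known changes. Library totals ran from 64571681 to 103518036 counts, and counting error, which reads without molecular identifiers understate, is only part of the spread.

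The 7 genes and all lists were chosen with earlier results of these data known. The genes named are the 7, *TRPV4*, up to 4 called genes with the smallest adjusted p per list and comparison, a fixed set of receptors, kinases and SOCS genes, the 3 most alike genes per cytokine and genes with overlapping exons. *NFKB1*, *RELA*, *CCND1*, *BIRC5*, *BCL2L1*, *ADAM10* and the untested ligands were named after their values were seen. The 10-letter NF-kappaB motif and the C/EBP motif were added after the sequences were seen. A gene of the kinase and STAT list, counted in its totals, is not reported here by name. Alternatives were DESeq2 1.42.0, upper quartile scaling, no filter, a minimum of 10 counts in all samples, a fit to the 6 samples compared alone, the replicate number as a block, a prior count of 0.5 and leaving out each sample.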

Additional observations from a re-analysis of the deposited data

How the results depend on the processing

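Every difference of the 7 genes kept its direction where it was called, in the 15 alternatives tried for each comparison. Without replicate 3 of SC-0.77cP the log2 differences of *IL24* from that group were 1.39 and 3.32, in place of 0.98 and 2.92, and over all samples left out they ran from 0.74 to 1.39 and from 2.68 to 3.32. In the comparison of the SC groups the count of all genes called, 3518, ran from 1409 to 4349 when 1 sample was left out, with 1409 without replicate 1 and 1927 without replicate 2 of SC-0.77cP and 1418 without replicate 3 of SC-8cP. Other pathway genes called higher there, 3, ran from 1 to 9, and were 6 with DESeq2, 6 with no filter and 5 with only the 6 samples compared. Of the 7 genes, 1 to 2 were higher and 3 to 4 lower. Between the groups at 8 cP the count of all genes called, 3649, ran from 2179 to 3836, lowest without replicate 2 and at 2361 without replicate 1 of SC cells. Other pathway genes higher, 6, ran from 3 to 6 and lower, 11, from 7 to 11. Both counts were at their lowest without replicate 1 and without replicate 2 of SC-8cP. The count of genes higher was 3 also without replicate 2 or replicate 3 of shTRPV4-8cP. Of the 7 genes 1 to 2 were higher and 1 to 2 lower, and 2 were higher with DESeq2 (*IL6ST* and *IL24*), with no filter and with only the 6 samples compared (*IL6* and *IL24* in both).

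Samples with the same replicate number did not deviate together, with correlations of their deviations from -0.0546 to 0.0904 over 9 pairs and from -0.106 to 0.115 over 18 pairs of different number, so the numbers were not taken to pair samples. With the replicate number as a block (replicate block), 3475, 3607 and 7731 genes were called in the 3 comparisons, and the block lost the call of *IL11RA* in the third (adjusted p = 0.0527 in edgeR's quasi-likelihood test), a call lost in 13 of 15 alternatives. The genes named as most like the cytokines were the same 3 for each of *IL6*, *IL11*, *LIF* and *IL24* with a prior count of 0.5. The low counts of *IL20RA*, *IL20RB* and *IL6R* limit how small a difference could be detected in them.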
